A study of Mus musculus with 13 samples.

Results

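The library labelled pCEC was made from mouse cells named by the submitters as primary corneal endothelial cells, and it was set against 3 libraries of chemically induced corneal endothelial cells (ciCEC). The comparison takes 4 of the 13 libraries in the series: pCEC, both ciCEC P1 replicates and ciCEC P8 replicate 1. The pCEC cells came from C57BL/6 corneal endothelia at post natal day 30, and they are 1 library, so every difference given here is a description without a test. The ciCEC libraries had embryonic fibroblasts (MEFs) of C57BL/6 embryos as their source and had been converted with defined small molecules. The unconverted fibroblasts (D0, 3 libraries) came from C57BL/6 E13.5 embryos and are given beside some results. Which compounds were used is not given in the sources used here. P1 and P8 are the submitters' stage names, which the labels do not spell out. Nothing in the labels says whether the P1 replicates were separate cultures. The fourth ciCEC library, P8 replicate 2, was not used: the 3 kept were selected on measured epithelial and fibroblast gene levels, which are given here as a description. It had 0 FPKM of Krt14, against 3533, 3569 and 3994 FPKM in the 3 kept, and 1336 FPKM of Col1a1, against 154, 461 and 7.09 FPKM. RNA was measured as FPKM, read counts scaled to transcript length and to the library's total, so levels can be set side by side between genes. Here and below the ciCEC values stand in the order P1 replicate 1, P1 replicate 2 and P8 replicate 1.

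The cornea is closed on its inner face by the corneal endothelium, a single layer of cells that pumps fluid out of the stroma through ion transporters such as Slc4a11 and that lays down Descemet membrane with its type VIII collagen. Its cells descend from periocular neural crest and are known for Cdh2, Lmx1b and Tfap2b. The outer face carries the corneal epithelium, a stratified layer held by keratin filaments and desmosomes, in which Pax6, Trp63, Krt12 and the aldehyde dehydrogenase Aldh3a1 are characteristic. Both layers are exposed to light and oxygen, and glutathione is a main redox defence of the cornea. Interferon-induced genes are antiviral genes that cells switch on after interferon or viral nucleic acid is sensed.

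The deposited gene column matched the line order of the fibroblast (D0) libraries alone, so the gene of each pCEC, P1 and P8 value was worked out again from the order of lines and from whole read numbers. Reads could be placed for 97.8% of pCEC lines with reads, 97.2% of P1 lines and 97.7% of P8 lines. With the D0 gene names hidden, the same procedure on single D0 libraries gave the right gene for 99.86% to 99.92% of placed lines. Those lines include genes whose length was itself checked or solved on D0. With 20 percent of genes treated as unchecked, 99.88% to 99.93% of their placed lines were right, but 91.8% to 92.2% of their genes at 1 FPKM or more were recovered, and 26 to 33 genes were wrongly left at 0. Of the 24 genes named by rank, 6 had a length that D0 could not check, among them Aldh3a1, Krt16, Cnfn and S100a9. A placing error of this size is small for a list of genes but weighs more among the most extreme values, so the uncertain placements are named with them. A level of 0 in pCEC, P1 or P8 is inferred where no line with reads fitted the gene, so a single 0 can be a missed placement. The read totals recovered from the FPKM steps were 20715716 for pCEC, against 22587267, 9997865 and 16543151 for the ciCEC libraries. Across the 15284 genes compared, the Spearman correlation of pCEC was 0.923 with P1 replicate 1, 0.879 with P1 replicate 2 and 0.908 with P8 replicate 1. The same value lay between 0.886 and 0.920 among the 3 ciCEC libraries. With ciCEC P8 replicate 2 it was 0.763, and with the D0 fibroblasts 0.737 to 0.739. These values are not on equal terms with those above. The genes compared reached 1 FPKM in pCEC or a kept ciCEC library, so genes found only in P8 replicate 2 or D0 are left out. The ciCEC libraries were also kept or dropped on measured gene levels. Genes are not independent replicates, and these values describe the libraries.

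The measured profile of the pCEC library went against its label in several defining genes. Of 15 endothelial identity genes compared, 2 lay above all 3 ciCEC libraries, 4 below all and 9 inside their range, with a median difference of -0.29. Over all genes compared these shares were 30.1%, 20.7% and 49.2%. The ciCEC libraries were selected on measured gene levels, so a place inside their range says nothing either way about the label. The 18 listed genes summed to 1243 FPKM in pCEC and to between 1106 and 1449 FPKM in ciCEC. The same sum was 1086 FPKM in ciCEC P8 replicate 2 and 784 to 821 FPKM in the D0 fibroblasts. Some defining genes of the corneal endothelium were at or near 0: Cdh2, the neural cadherin of this layer, had 0.109 FPKM in pCEC, against 2.31, 2.45 and 0.015 FPKM in ciCEC. Col8a2, a collagen of Descemet membrane, had 0.062 FPKM in pCEC, against 0, 0.299 and 0.026 FPKM in ciCEC. The neural crest factors Lmx1b and Tfap2b had no read in pCEC, where a count of 0 allows up to 0.065 FPKM of Lmx1b and 0.06 FPKM of Tfap2b. Epithelial genes were abundant in pCEC. The basal keratin Krt5 had 676 FPKM in pCEC, against 2360.3, 2192 and 2382 FPKM in ciCEC, and its partner Krt14 had 644 FPKM in pCEC, against 3533, 3569 and 3994 FPKM in ciCEC. Cdh1, the epithelial cadherin, had 295 FPKM in pCEC, against 351, 474 and 358 FPKM in ciCEC. Trp63, the basal epithelial master factor, had 47.1 FPKM in pCEC, against 61.2, 20.7 and 80.9 FPKM in ciCEC. The ciCEC values of these genes bear on how those libraries were selected and are a description only. The library is called pCEC here after its column. Krt12, the keratin of differentiated corneal epithelium, was also near 0, with 0.026 FPKM in pCEC, against 0, 0.054 and 0 FPKM in ciCEC. In a bulk library, fewer cells of a type and less RNA per cell cannot be told apart.

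**Figure D1:**
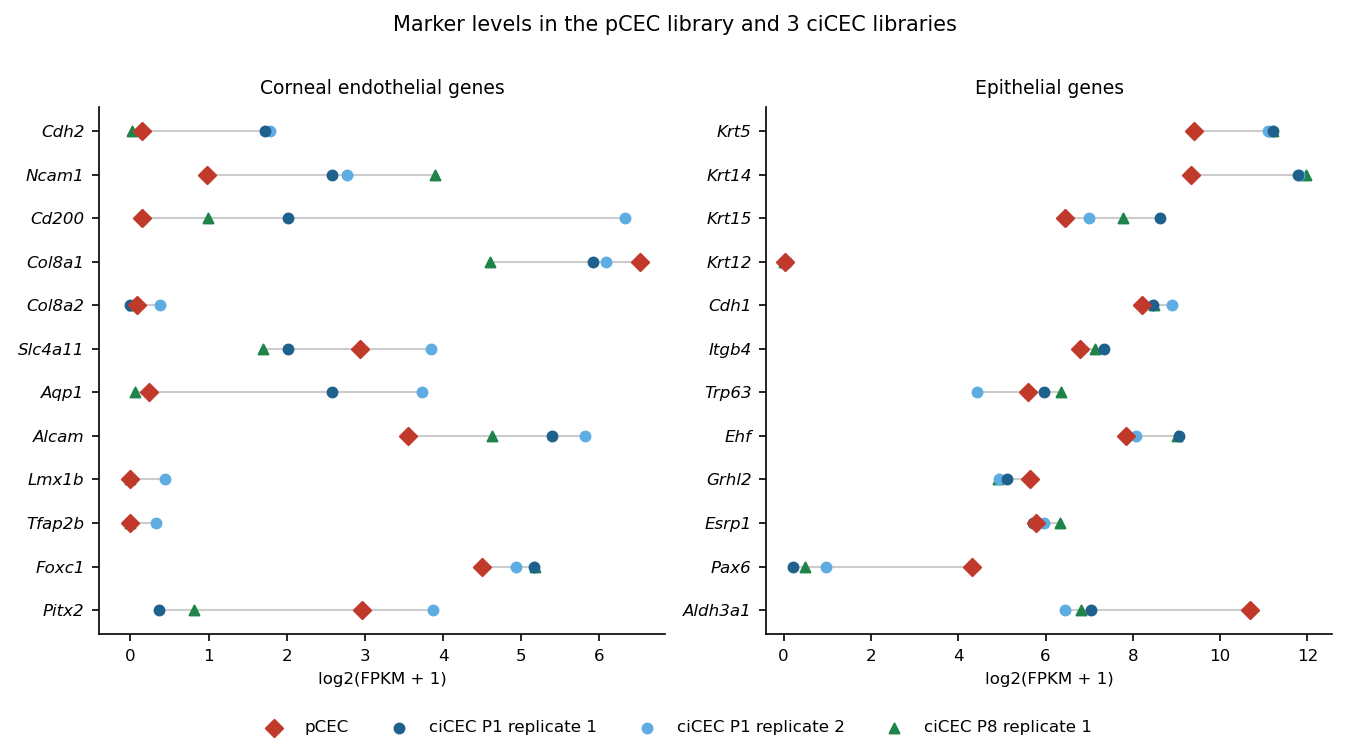
Level of 12 corneal endothelial genes (left) and 12 epithelial genes (right) as log2(FPKM + 1) in each library, with pCEC as red diamonds and the 3 ciCEC libraries as blue circles and green triangles. The pCEC library sits near 0 for Cdh2, Col8a2, Lmx1b and Tfap2b, at 676 FPKM for Krt5, and far above the ciCEC libraries for Pax6 and Aldh3a1.

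Of the 18 endothelial identity genes, 15 reached 1 FPKM in at least 1 of the 4 libraries and none stood apart by the call used below. The genes of this list with the greatest differences were lower in pCEC. Cd200, a surface glycoprotein, had 0.106 FPKM in pCEC, against 3.05, 79.3 and 0.993 FPKM in ciCEC. Ncam1, the neural cell adhesion molecule, had 0.974 FPKM in pCEC, against 4.98, 5.80 and 13.8 FPKM in ciCEC. Aqp1, the water channel of the endothelium, had 0.184 FPKM in pCEC, against 4.95, 12.3 and 0.046 FPKM in ciCEC, so the P8 library was near 0 as well. Alcam, another adhesion molecule, had 10.8 FPKM in pCEC, against 40.9, 55.2 and 23.7 FPKM in ciCEC. Slc4a11, a transporter of this layer, had 6.63 FPKM in pCEC, against 3.05, 13.4 and 2.23 FPKM in ciCEC, which lies inside the ciCEC range. Col8a1, the other type VIII collagen chain, was highest in pCEC, with 90.4 FPKM in pCEC, against 59.4, 66.9 and 23.3 FPKM in ciCEC. Among the transport genes, Slc16a3, the lactate exporter, had 33.7 FPKM in pCEC, against 192, 165 and 176 FPKM in ciCEC, which made it the single called gene of 20. The sodium bicarbonate cotransporter Slc4a4 differed the other way, with 35.1 FPKM in pCEC, against 16.9, 12.1 and 1.77 FPKM in ciCEC. Car3, a carbonic anhydrase, ranged widely, with 9.97 FPKM in pCEC, against 18.7, 0.232 and 0.14 FPKM in ciCEC. Of these 20 transport genes, 4 lay above all 3 ciCEC libraries, 6 below all and 10 inside their range. Over all genes compared these shares were 30.1%, 20.7% and 49.2%, and 0.294% were called lower.

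Many defining markers of other cell types were at 0 in pCEC, while some shared markers were well expressed. The macrophage genes C1qa, C1qb, C1qc, Adgre1, Tyrobp and Lyz2 and the leukocyte gene Ptprc were at 0 there, while the less specific Cd14 had 225 FPKM in pCEC, against 256, 311 and 338 FPKM in ciCEC. Cd68, a lysosomal protein, had 97.9 FPKM in pCEC, against 18.7, 14.6 and 57.5 FPKM in ciCEC. The 12 macrophage genes summed to 323 FPKM in pCEC and to between 300.3 and 401 FPKM in the ciCEC libraries. The 10 vascular endothelial genes summed to 0.81 FPKM in pCEC and to between 1.32 and 3.63 FPKM in the ciCEC libraries, with Cdh5, Kdr, Erg and Emcn at 0 in pCEC. The 13 stromal keratocyte genes summed to 332 FPKM in pCEC and to between 209 and 965 FPKM in ciCEC. Their defining members Kera and Lum were at 0 in pCEC and Dcn had 0.349 FPKM in pCEC, against 23.4, 177 and 2.22 FPKM in ciCEC. Most of the keratocyte sum in pCEC came from 1 list member, the retinaldehyde dehydrogenase Aldh1a1. Skeletal muscle, retinal and melanocyte lists summed to 0.543, 0.459 and 3.62 FPKM in pCEC. Both the Schwann cell and lens lists had their highest sum in pCEC. The 8 Schwann cell and glia genes summed to 86.2 FPKM in pCEC and to between 60.3 and 69.9 FPKM in ciCEC. Mbp and Erbb3 made up most of that sum, and Sox10, the defining factor, was at 0 in pCEC. The 10 lens genes summed to 200.2 FPKM in pCEC and to between 85.96 and 179.7 FPKM in ciCEC, nearly all of it from the small heat shock protein Cryab, with the lens genes Mip and Lim2 at 0 in pCEC. The part of other cell types in the differences was not tested.

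A gene was called when its log2(FPKM + 1) in pCEC lay at least 2 units above the highest or below the lowest of the 3 ciCEC libraries, so that the spread among the ciCEC libraries enters each call. By this rule 63 genes were higher in pCEC, 0.412% of those compared, and 45 were lower, 0.294%. Of the higher genes, 41 had reads in pCEC, in P1 and in P8 alike (0.282% of 14541 such genes), and of the lower genes 42 (0.289%). The other 22 higher genes were at 0 in a whole group of ciCEC columns, and 11 of all higher genes were short RNA genes. Of the genes compared, 30.1% lay above all 3 ciCEC libraries by any margin, 20.7% below all of them and 49.2% inside their range. Without P1 replicate 1 the calls were 127 higher and 106 lower, without P1 replicate 2 107 and 96, and without P8 replicate 1 92 and 127. Fewer libraries leave a narrower range to clear.

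**Figure D2:**
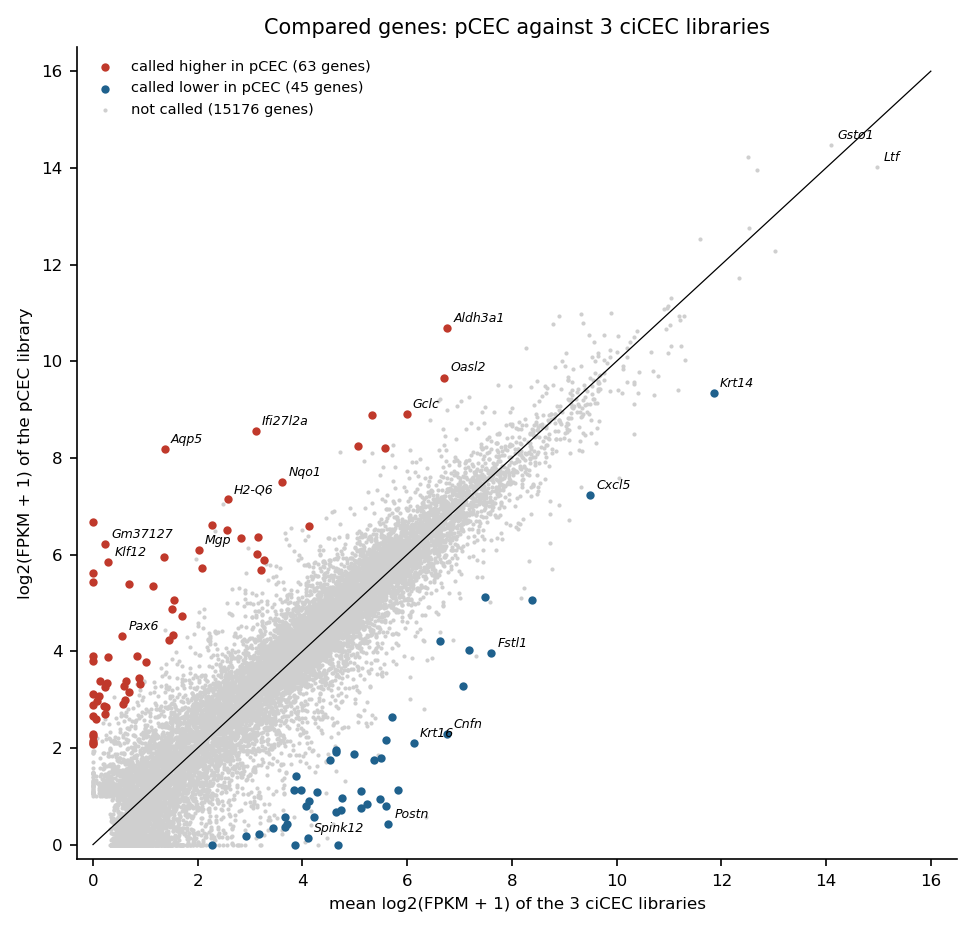
Each point is 1 of the 15284 genes compared, with the mean log2(FPKM + 1) of the 3 ciCEC libraries on the x axis and the pCEC library on the y axis. Red points are the 63 genes called higher in pCEC, blue points the 45 called lower, and the line marks equal levels. Most genes follow the line, and Aqp5, Aldh3a1 and Ifi27l2a stand far above it while Postn and Krt14 stand below it.

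Aqp5 had the largest difference among called genes with reads in every group. This water channel of corneal epithelium and secretory glands (chromosome 15, 99590782 to 99594829, plus strand) had 290.1 FPKM in pCEC, against 0.734, 8.53 and 0.048 FPKM in ciCEC. Its level in pCEC was 34.02 times that of the highest ciCEC library, and the 3 ciCEC libraries themselves differed widely. The difference from their mean was 6.81 log2 units, with an SD of 1.67 among the 3 (n = 3).

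Some corneal and eye-field genes were among the highest differences. Aldh3a1, the aldehyde dehydrogenase that makes up much of the soluble protein of corneal epithelium (chromosome 11, 61207537 to 61218421, plus strand), had 1642 FPKM in pCEC, against 130.4, 86.4 and 112 FPKM in ciCEC. The 3 ciCEC libraries lay close together, and pCEC was 3.91 log2 units above their mean. Pax6, the paired-box factor of eye development (chromosome 2, 105668900 to 105697364, plus strand), had 18.9 FPKM in pCEC, against 0.151, 0.969 and 0.414 FPKM in ciCEC, a difference of 3.75 log2 units. At 686 reads its exact Poisson 95% interval in pCEC was 17.5 to 20.3 FPKM, which covers counting error only. Six3, a homeobox gene of the early eye field, had 9.48 FPKM in pCEC, against 0, 0.336 and 0 FPKM in ciCEC. Six2, a related homeobox gene, had 4.74 FPKM in pCEC, against 0, 0.458 and 0.031 FPKM in ciCEC. The pCEC library was the highest for Six2, without a call. In the list of 7 corneal epithelial genes compared, 2 were called higher (Pax6 and Aldh3a1) and none lower. Krt5 and the mucin Muc4 ran the other way, Muc4 with 47.4 FPKM in pCEC, against 227, 65.5 and 143 FPKM in ciCEC. Of the 7, 3 lay above all 3 ciCEC libraries and 3 below all. The list median was -0.48 against P1 replicate 1, 1.58 against P1 replicate 2 and 0.33 against P8 replicate 1. Of 20 transcription factors of the anterior segment, 2 were called higher, Pax6 and Six3, and none lower, beside 0.412% and 0.294% of all genes compared. Of these 20, 7 lay above all 3 ciCEC libraries, 5 below all and 8 inside their range, beside 30.1%, 20.7% and 49.2% of all genes. Their median difference was 0.06 log2 units, beside 0.05 over all genes compared.

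Genes of glutathione synthesis and redox defence held 3 genes called higher in pCEC. Nqo1, a quinone reductase (chromosome 8, 107388225 to 107403206, minus strand), had 180.4 FPKM in pCEC, against 12.4, 10.05 and 11.2 FPKM in ciCEC. Gclc, the catalytic subunit of the enzyme that starts glutathione synthesis (chromosome 9, 77754535 to 77794485, plus strand), had 478 FPKM in pCEC, against 58.4, 67.3 and 62.3 FPKM in ciCEC. Its modifier subunit Gclm (chromosome 3, 122245557 to 122270732, plus strand) had 302 FPKM in pCEC, against 47.7, 38.9 and 17.8 FPKM in ciCEC. For Nqo1 and Gclc the ciCEC libraries were nearly level, with SDs of 0.14 and 0.10 log2 units (n = 3 each), against differences of 3.90 and 2.91. These were the 3 called among 19 redox and metallothionein genes compared, and 10 of the 19 lay above all ciCEC libraries. Over all genes compared, 0.412% were called higher and 30.1% lay above all 3. The median difference of the list was 0.57, beside 0.05 over all genes compared. Against single libraries the list median was 0.84 for P1 replicate 1, 0.27 for P1 replicate 2 and 0.14 for P8 replicate 1. Over all genes the same medians were -0.01, 0.13 and 0.11, so against P8 replicate 1 the list was nearly level with all genes. Slc7a11, the cystine importer that feeds the pathway, had 38.2 FPKM in pCEC, against 4.14, 10.4 and 3.30 FPKM in ciCEC. Catalase (Cat) had 578 FPKM in pCEC, against 117, 90.00 and 209 FPKM in ciCEC. Both were highest in pCEC, short of the call, and were singled out after their values were seen. In the same list Gpx3, a secreted glutathione peroxidase, had 2.60 FPKM in pCEC, against 327, 77.1 and 2.27 FPKM in ciCEC, where pCEC and P8 replicate 1 were both low and the P1 libraries high. The metallothionein Mt1, a zinc-binding protein, was lowest in pCEC, with 79.2 FPKM in pCEC, against 129, 299 and 289.9 FPKM in ciCEC, so members of the list differed in both directions. Osgin1, an oxidative stress-induced gene singled out after its values were seen, had 293 FPKM in pCEC, against 43.6, 47.4 and 50.1 FPKM in ciCEC.

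Many genes of this pathway are known targets of the factor Nrf2, which binds antioxidant response elements. The 300-base Gclm promoter from RefSeq (GRCm38.p6, chr3:122245307-122245606, plus strand) is shown because 1 antioxidant response element core, TGACNNNGC searched on both strands, lies in it, here on the reverse strand and in capitals. At least 1 promoter held the core in 5 of the 14 listed redox genes in the table and in 13.99% of all 27025 genes there. Per promoter the share was 12.4% of 32851. A match describes letters, not a bound site. The Nqo1 promoter in the table held no match, which says only that these letters are not in that window.

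Gclm: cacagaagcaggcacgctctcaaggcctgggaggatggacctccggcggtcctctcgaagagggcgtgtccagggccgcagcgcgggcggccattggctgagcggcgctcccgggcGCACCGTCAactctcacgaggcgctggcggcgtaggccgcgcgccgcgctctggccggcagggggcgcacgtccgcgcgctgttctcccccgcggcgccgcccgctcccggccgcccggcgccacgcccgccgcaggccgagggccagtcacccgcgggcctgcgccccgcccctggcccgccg

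Interferon-induced genes mostly lay above the ciCEC libraries, and 3 were called. Ifi27l2a, a short interferon-induced protein (chromosome 12, 103442167 to 103443680, minus strand), had 377 FPKM in pCEC, against 5.55, 7.78 and 10.2 FPKM in ciCEC. Oasl1, an oligoadenylate synthetase-like protein, had 472 FPKM in pCEC, against 12.9, 51.1 and 90.3 FPKM in ciCEC. Its neighbour Oasl2 had 809 FPKM in pCEC, against 176, 69.5 and 89.3 FPKM in ciCEC. These 3 were called higher of 18 compared, and 15 of the 18 lay above all 3 ciCEC libraries, none below. Over all genes compared, 0.412% were called higher, 30.1% lay above all 3 and 20.7% below all. The median difference was 1.87 log2 units. Against single libraries it was 1.09 for P1 replicate 1, 2.39 for P1 replicate 2 and 2.27 for P8 replicate 1. Rsad2 (viperin, an antiviral enzyme) had 78.6 FPKM in pCEC, against 28.2, 12.2 and 4.51 FPKM in ciCEC, on a pCEC value that fitted 2.85% of gene lengths, so its placement is less certain than the others. Both Rsad2 and the genes that follow lay short of the call. Ifit3, an RNA-binding antiviral protein, had 578 FPKM in pCEC, against 169, 38.2 and 132 FPKM in ciCEC. Isg15, a ubiquitin-like modifier, had 287 FPKM in pCEC, against 129, 102 and 68.8 FPKM in ciCEC. The transcription factor Irf7 was no higher in pCEC than in the P8 library, with 293 FPKM in pCEC, against 142, 126 and 296 FPKM in ciCEC, and Cmpk2 and Mx2 lay inside the ciCEC range. Levels in ciCEC P8 replicate 2 were close to or above pCEC for several of these genes, as with 355 FPKM of Isg15 and 73.7 FPKM of Rsad2.

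RefSeq promoters of interferon-induced genes follow, to show how the interferon-stimulated response element core looks in genes of this list. The core, GAAA followed by any 2 bases and GAAA again, was searched on both strands and is in capitals where found. Isg15 (GRCm38.p6, chr4:156200769-156201068, minus strand) holds 3 overlapping matches and Ifit3 (GRCm38.p6, chr19:34583279-34583578, plus strand) 2 on the reverse strand, whereas Oasl1 (GRCm38.p6, chr5:114922990-114923289, plus strand), which is among the called genes, holds none. Oasl2, also called, holds none either, and no promoter of the called gene Ifi27l2a was available. The matches thus all fall in list genes that were not called. Of the 12 list genes with a promoter in the table, 6 held a match, counted per gene, where any promoter of a gene may match. Counted the same way, 3.99% of 27025 genes in the table held one, and per promoter 3.44% of 32851.

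Isg15: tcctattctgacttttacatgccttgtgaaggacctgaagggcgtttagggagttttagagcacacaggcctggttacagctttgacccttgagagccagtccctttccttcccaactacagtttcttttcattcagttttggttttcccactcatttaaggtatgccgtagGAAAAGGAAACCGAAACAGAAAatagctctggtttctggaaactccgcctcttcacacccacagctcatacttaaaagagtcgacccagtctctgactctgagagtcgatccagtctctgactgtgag
Ifit3: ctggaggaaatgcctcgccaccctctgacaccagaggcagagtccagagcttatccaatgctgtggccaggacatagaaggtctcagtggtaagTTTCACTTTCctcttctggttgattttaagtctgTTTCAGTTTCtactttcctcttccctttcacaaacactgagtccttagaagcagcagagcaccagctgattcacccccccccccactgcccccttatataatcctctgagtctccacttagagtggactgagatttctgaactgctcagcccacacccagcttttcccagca
Oasl1: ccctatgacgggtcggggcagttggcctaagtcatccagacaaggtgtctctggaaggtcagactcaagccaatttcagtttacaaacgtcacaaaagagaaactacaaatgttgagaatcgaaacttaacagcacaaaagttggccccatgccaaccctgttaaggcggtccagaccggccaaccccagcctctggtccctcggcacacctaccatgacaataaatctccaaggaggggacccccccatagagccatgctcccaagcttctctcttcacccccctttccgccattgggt

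MHC class I genes, which present peptides to T cells, also lay mostly above ciCEC. H2-Q6 (chromosome 17, 35424850 to 35430055, plus strand) had 140.0 FPKM in pCEC, against 28.1, 1.44 and 1.97 FPKM in ciCEC. H2-Q7 had 97.1 FPKM in pCEC, against 19.4, 0.714 and 2.26 FPKM in ciCEC. Both were called, and in both P1 replicate 1 stood far above the other two ciCEC libraries. H2-Q genes are near-identical copies of each other, so reads could have been split between them and their single values are uncertain. Among the classical genes, H2-K1 had 1955 FPKM in pCEC, against 1062, 116 and 865 FPKM in ciCEC. B2m, the shared light chain, had 2009 FPKM in pCEC, against 1063, 372 and 652 FPKM in ciCEC. Neither was called, and pCEC was the highest of the 4 libraries for both. In ciCEC P8 replicate 2, B2m had 2168 FPKM, above pCEC, and H2-K1 had 637 FPKM, below it. Nlrc5, the transactivator of this gene class, had 22.1 FPKM in pCEC, against 9.30, 1.26 and 1.74 FPKM in ciCEC. Of 12 members compared, 2 were called higher and 10 lay above all ciCEC libraries, beside 0.412% and 30.1% of all genes compared. The median difference was 1.20 log2 units. Tapbp, the peptide-loading bridge, was the one member below all 3, with 257 FPKM in pCEC, against 345, 282 and 387 FPKM in ciCEC.

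**Figure D3:**
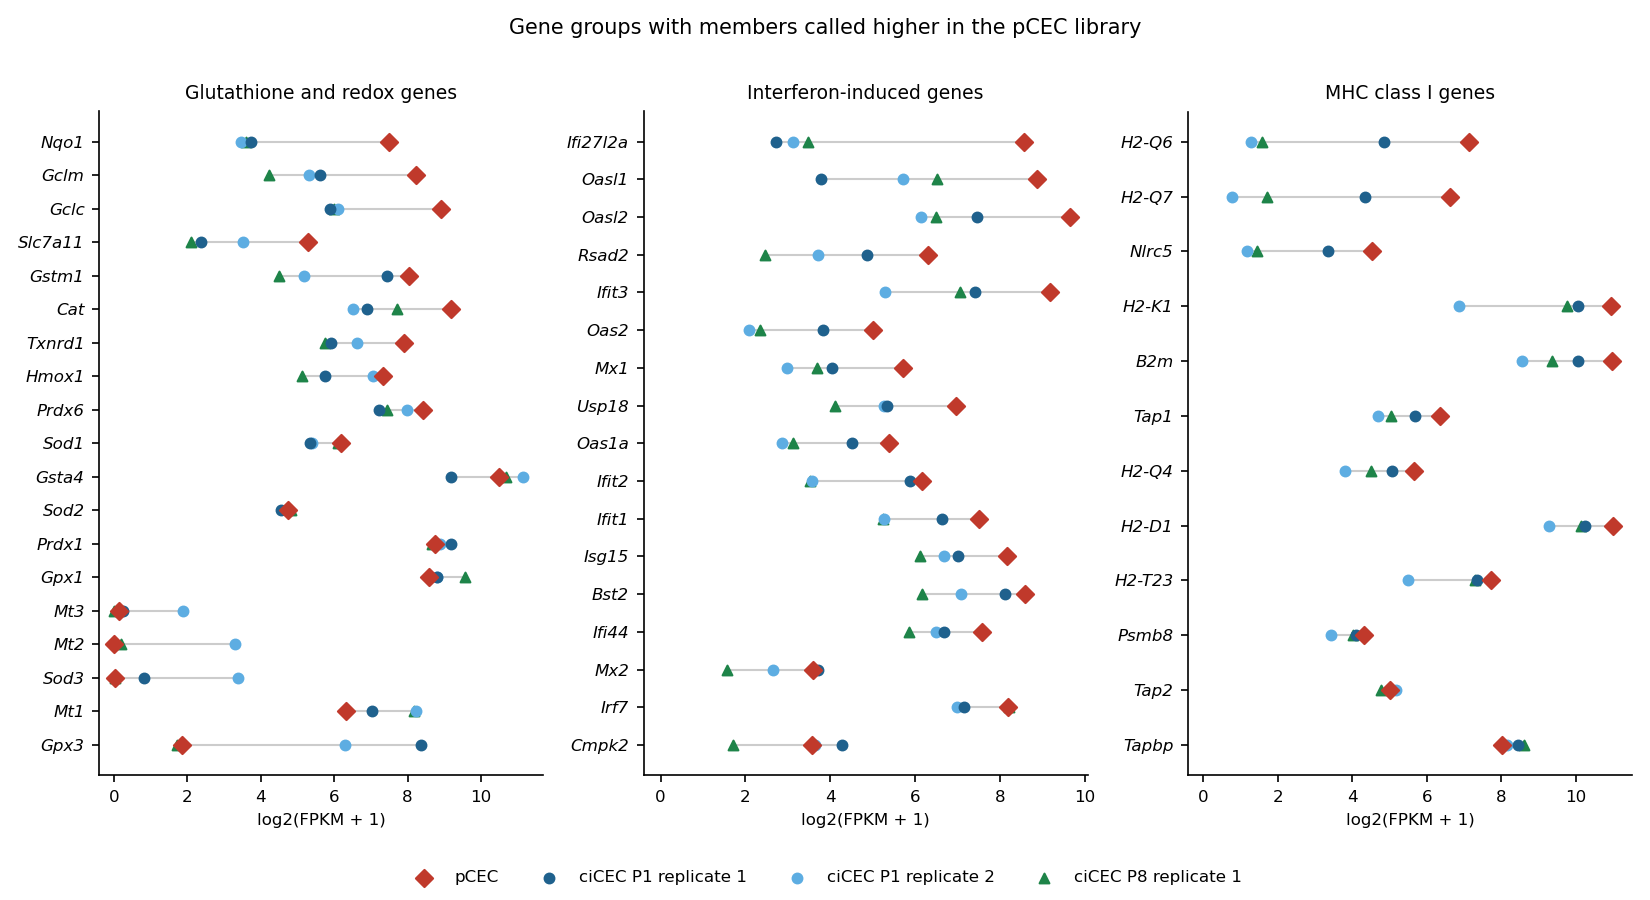
Level of redox genes (left), interferon-induced genes (middle) and MHC class I genes (right) as log2(FPKM + 1), with pCEC as red diamonds and the 3 ciCEC libraries as blue circles and green triangles, and a grey line from the lowest to the highest library. Some list members are not drawn. Over the whole lists, pCEC is the highest for 15 of 18 interferon-induced genes, 10 of 12 MHC class I genes and 10 of 19 redox genes. The share over all genes compared is 30.1%.

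Other genes at the top of the ranking belonged to none of these groups. Mgp, matrix Gla protein, an inhibitor of calcification, had 67.1 FPKM in pCEC, against 5.85, 1.80 and 2.45 FPKM in ciCEC, and the D0 fibroblasts had 241 ± 15.97 FPKM (SD, n = 3). Artn, artemin, a neurotrophic ligand (chromosome 4, 117926162 to 117929763, minus strand), had 89.5 FPKM in pCEC, against 3.02, 4.43 and 8.25 FPKM in ciCEC. The antisense transcript 9530034E10Rik had 40.9 FPKM in pCEC, against 0.706, 0 and 1.44 FPKM in ciCEC, and whether reads were assigned by strand is not given in the sources used here. Klf12, a zinc finger factor, had 56.4 FPKM in pCEC, against 0.15, 0.282 and 0.238 FPKM in ciCEC. Gm37127, a locus without an assigned function, had 73.1 FPKM in pCEC, against 0.408, 0.099 and 0.06 FPKM in ciCEC. Those 2 placements are uncertain, since the pCEC value gave whole reads with the lengths of 1.39% of genes for Klf12 and 3.40% for Gm37127, against 0.098% for Aldh3a1 and 0.035% for Nqo1. Among called genes with reads in every group, 36 of 41 higher and 38 of 42 lower ones stood on values that fitted at most 1% of gene lengths in every group. The T cell receptor segment Trav14-2 had 39.8 FPKM in pCEC, against 1.60, 0 and 3.10 FPKM in ciCEC, with a P1 value that fitted 1.26% of lengths, so its placement is uncertain as well.

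Among interstitial matrix genes, 4 were called lower. Postn, periostin, a matricellular protein (chromosome 3, 54361109 to 54391037, plus strand), had 0.339 FPKM in pCEC, against 101, 35.1 and 32.2 FPKM in ciCEC. With 16 reads, its exact Poisson interval in pCEC was 0.194 to 0.551 FPKM, and the lowest ciCEC library was 94.7 times as high. Col6a1, a type VI collagen chain, had 0.634 FPKM in pCEC, against 29.6, 32.6 and 17.5 FPKM in ciCEC. Its partner chain Col6a2 had 0.171 FPKM in pCEC, against 8.51, 9.92 and 6.15 FPKM in ciCEC. All 3 ciCEC libraries were far above pCEC for both chains. Col5a2, a type V collagen chain, had 1.15 FPKM in pCEC, against 31.5, 59.02 and 20.3 FPKM in ciCEC. These 4 were called lower of 20 interstitial matrix genes, and none was called higher, beside 0.294% and 0.412% of all genes compared. The fibrillar collagen Col3a1 had 5.95 FPKM in pCEC, against 115, 175 and 24.5 FPKM in ciCEC, lowest in pCEC without a call. Col1a1 had 13.2 FPKM in pCEC, against 154, 461 and 7.09 FPKM in ciCEC, and here P8 replicate 1 was lower than pCEC. The median difference of the list was -2.15 log2 units from the mean of the 3, but it was -2.68 against P1 replicate 1, -4.01 against P1 replicate 2 and -0.03 against P8 replicate 1. Against P8 replicate 1 the list median was thus near 0, while in the 4 called members P8 replicate 1 was well above pCEC. With P8 replicate 2 added, the median from the mean was -2.99 log2 units. The 3 libraries kept were selected on epithelial and fibroblast gene levels, so the counts and values of this list are a description only. The list summed to 352 FPKM in pCEC and to 1343, 2158 and 469 FPKM in the ciCEC libraries, and the part of fibroblast RNA in the called differences was not tested.

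Basement membrane genes showed single strong differences. Over all genes compared, 0.412% were called higher and 0.294% lower, while 30.1% lay above all 3 ciCEC libraries and 20.7% below all. Col7a1, the anchoring fibril collagen that ties basal epithelial cells to the stroma, had 3.46 FPKM in pCEC, against 35.7, 73.4 and 40.3 FPKM in ciCEC and was the only call among 11 hemidesmosome genes. Tgfbi, an adhesive matrix protein abundant in cornea, had 17.6 FPKM in pCEC, against 79.9, 149.9 and 77.9 FPKM in ciCEC and was the only call among 21 Descemet membrane genes. Sparc, a collagen-binding matrix protein, had 38.5 FPKM in pCEC, against 465, 423 and 139 FPKM in ciCEC. The laminin chain Lama4 had 1.26 FPKM in pCEC, against 21.3, 22.7 and 2.59 FPKM in ciCEC. Nid1, nidogen, which links laminin to collagen, had 5.19 FPKM in pCEC, against 31.1, 67.7 and 2.46 FPKM in ciCEC. In Sparc and Lama4 pCEC was the lowest of the 4 libraries, short of the call. Of the 11 hemidesmosome genes, 3 lay above all 3 ciCEC libraries and 5 below all. Of the 21 Descemet membrane genes, 3 lay above all, 5 below all and 13 inside the ciCEC range. Among 13 matrix proteases and inhibitors, the collagenase Mmp13 was the call, with 0.488 FPKM in pCEC, against 26.8, 7.26 and 7.91 FPKM in ciCEC, although its pCEC value of 27 reads fitted 1.05% of gene lengths. The gelatinase Mmp2 had 1.47 FPKM in pCEC, against 33.2, 153 and 3.27 FPKM in ciCEC, low in both pCEC and P8. Adamts1, an aggrecan-cleaving protease, had 4.71 FPKM in pCEC, against 107, 7.35 and 54.8 FPKM in ciCEC. Mmp10, stromelysin-2, had 0.028 FPKM in pCEC, against 6.27, 18.99 and 0.702 FPKM in ciCEC. Of the 13 proteases and inhibitors, 9 lay below all 3 ciCEC libraries and 1 above all.

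Keratins were called lower or not called. The wound and hyperproliferation keratins Krt16 and Krt6b were both called lower. Krt16 had 3.30 FPKM in pCEC, against 91.3, 32.9 and 107 FPKM in ciCEC. Krt6b had 32.5 FPKM in pCEC, against 243, 188 and 803 FPKM in ciCEC. Krt14 was called lower as well, by 2.52 log2 units from the ciCEC mean, and Krt5 by 1.77 log2 units without reaching the call. The simple epithelial keratin Krt7 had 1494 FPKM in pCEC, against 363, 1391 and 709 FPKM in ciCEC, so pCEC and P1 replicate 2 were nearly level. Krt8 and Krt18, the simple keratin pair, lay inside the ciCEC range. Krt8 had 365 FPKM in pCEC, against 319.8, 1333 and 326 FPKM in ciCEC. Krt18 had 691 FPKM in pCEC, against 221, 1017 and 303 FPKM in ciCEC. Of 18 keratins compared, 3 were called lower and none higher, beside 0.294% and 0.412% of all genes compared. Below all ciCEC libraries lay 10 of the 18, beside 20.7% of all genes. The median difference was -0.95 log2 units, but 1.08 with P8 replicate 2 added. The 3 ciCEC libraries were selected on epithelial gene levels, so the keratin values are a description only.

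Desmosome genes, which join epithelial cells to one another, had no call, and most were lower: 9 of 11 lay below all 3 ciCEC libraries, beside 20.7% of all genes compared. The median difference was -0.85 log2 units, but 0.61 with P8 replicate 2 added. The 3 libraries kept were selected on epithelial and fibroblast gene levels, so this too is a description only. Desmoplakin (Dsp), the plaque protein that anchors keratin filaments, had 97.9 FPKM in pCEC, against 275, 270.1 and 304 FPKM in ciCEC. The desmocollin Dsc2 had 39.5 FPKM in pCEC, against 86.8, 96.6 and 121 FPKM in ciCEC. Plakoglobin (Jup), which links cadherins to the plaque, had 314 FPKM in pCEC, against 608, 864 and 908 FPKM in ciCEC. In these 3 genes the ciCEC libraries lay close together above pCEC. Periplakin (Ppl), another plaque protein, had 78.1 FPKM in pCEC, against 143, 158 and 311 FPKM in ciCEC. Dsg2, a desmoglein, was the one member above all 3, with 67.9 FPKM in pCEC, against 52.9, 54.6 and 58.1 FPKM in ciCEC. Tight junction genes had no call among 17, and epithelial transcription factors none among 17, with Trp63 and Klf4 inside the ciCEC range. Elf3, an epithelial Ets factor, was highest in pCEC, with 393 FPKM in pCEC, against 105, 182 and 227 FPKM in ciCEC. Its relative Elf5 was lowest there, with 0.707 FPKM in pCEC, against 4.03, 12.6 and 8.74 FPKM in ciCEC. Ehf, of the same family, had 228 FPKM in pCEC, against 529, 269.8 and 518 FPKM in ciCEC. The forkhead factor Foxa1 had 27.4 FPKM in pCEC, against 0.909, 57.7 and 7.98 FPKM in ciCEC.

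No secreted defence or complement gene of the lists lay above all 3 ciCEC libraries. S100a8 and S100a9 form calprotectin, which binds metals. S100a8 had 0.294 FPKM in pCEC, against 7.56, 11.2 and 18.3 FPKM in ciCEC. S100a9 had 0.936 FPKM in pCEC, against 25.5, 26.9 and 119.7 FPKM in ciCEC. In pCEC these rested on 3 and 10 reads. Cxcl5, a neutrophil-attracting chemokine, had 149 FPKM in pCEC, against 774, 657 and 728 FPKM in ciCEC. Saa3, an acute-phase protein, had 0.49 FPKM in pCEC, against 92.1, 1299 and 3.52 FPKM in ciCEC, and was not called, as the P8 library was low too. Of 14 defence genes, 3 were called lower and none higher, beside 0.294% and 0.412% of all genes compared. Ltf, lactotransferrin, was among the most abundant transcripts of all 4 libraries, with 16535 FPKM in pCEC, against 14897, 39986 and 56229 FPKM in ciCEC. In the complement list, the C1 inhibitor Serping1 had 0.735 FPKM in pCEC, against 37.4, 75.8 and 37.1 FPKM in ciCEC. It was one of 2 calls among 11 complement genes, beside 0.294% of all genes compared. Of the 11, 8 lay below all 3 ciCEC libraries, beside 20.7% of all genes. The components C3 and C1s1 were among those lowest in pCEC short of a call. C3, the central component, had 57.05 FPKM in pCEC, against 923, 204 and 176 FPKM in ciCEC. C1s1, a C1 protease, had 2.26 FPKM in pCEC, against 40.8, 20.5 and 10.6 FPKM in ciCEC. Serpina3g, a protease inhibitor, had 0.69 FPKM in pCEC, against 51.4, 49.6 and 14.6 FPKM in ciCEC, on a pCEC value that fitted 1.40% of gene lengths. Among 17 cytokines and chemokines, 1 was called lower, Cxcl5, and 9 lay below all 3, beside 0.294% and 20.7% of all genes compared. Ccl2, which attracts monocytes, had 0.101 FPKM in pCEC, against 32.2, 82.7 and 2.91 FPKM in ciCEC. Csf2, a myeloid growth factor, had 0 FPKM in pCEC, against 2.55, 6.00 and 13.6 FPKM in ciCEC. Ccl20, a chemokine of epithelia, had 0.777 FPKM in pCEC, against 29.2, 2.92 and 8.15 FPKM in ciCEC.

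**Figure D4:**
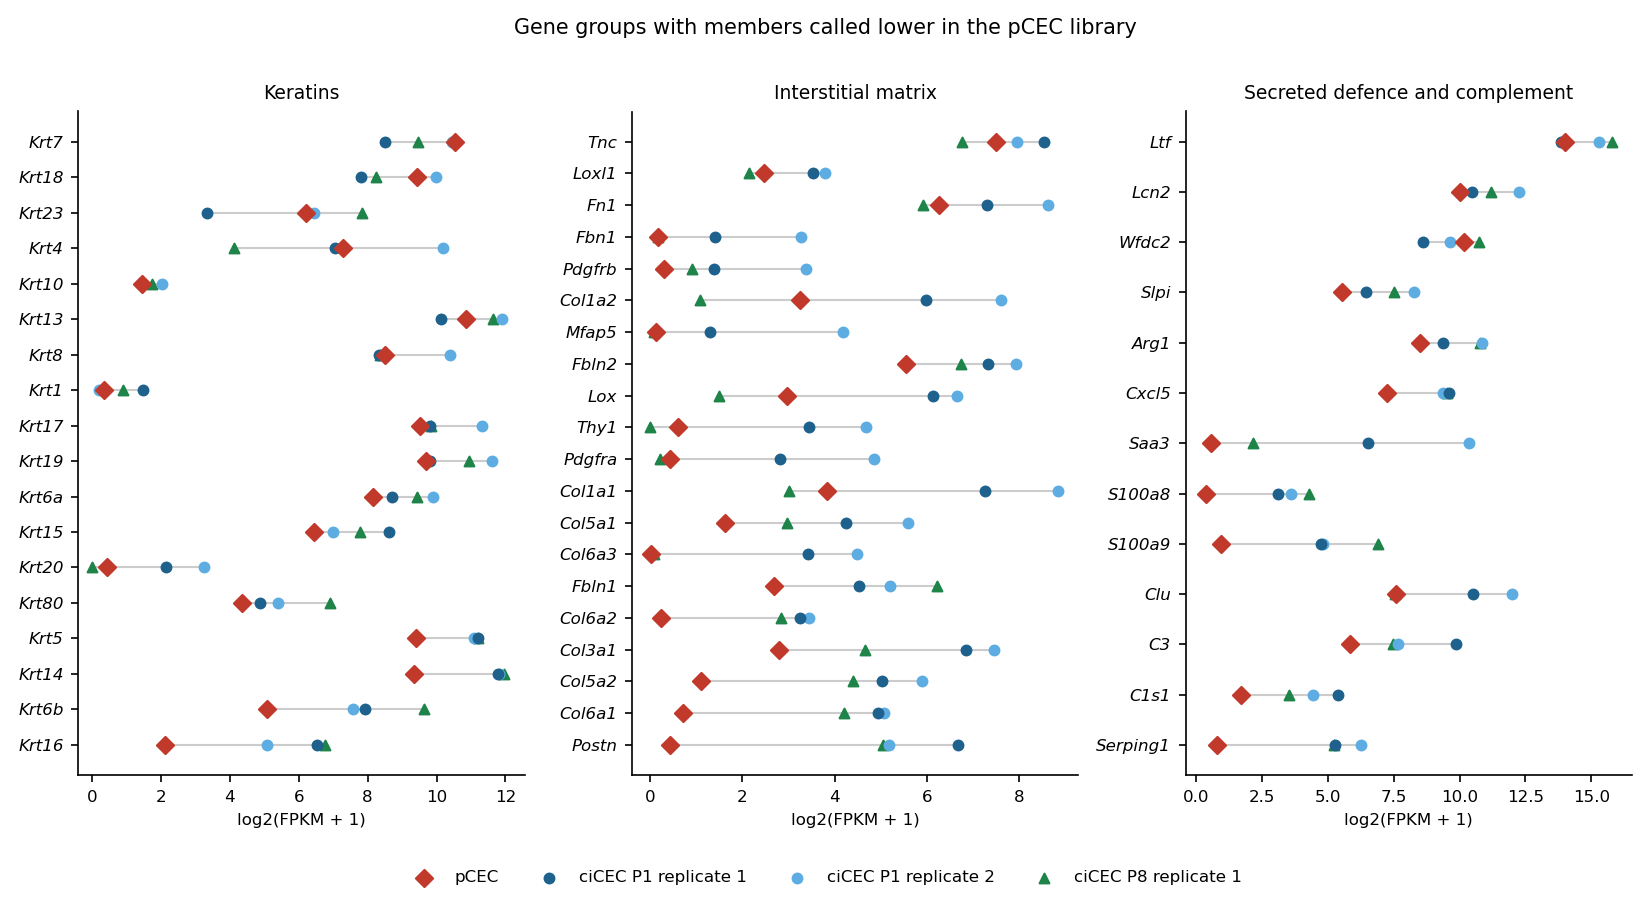
Level of keratins (left), interstitial matrix genes (middle) and secreted defence and complement genes (right) as log2(FPKM + 1), with pCEC as red diamonds, the 3 ciCEC libraries as blue circles and green triangles, and a grey line from the lowest to the highest library. Some list members are not drawn. Krt16, Krt6b, Krt14, Col6a1, Postn, S100a9 and Serping1 show pCEC well below all 3 ciCEC libraries, whereas for Col1a1, Lox and Thy1 the P8 library is lower still.

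The other lower genes named by rank belonged to none of these lists. Akr1c18, a steroid dehydrogenase, had 1.17 FPKM in pCEC, against 97.6, 29.7 and 58.9 FPKM in ciCEC. Cnfn, cornifelin, a protein of the cornified envelope, had 3.87 FPKM in pCEC, against 84.99, 58.3 and 248 FPKM in ciCEC. Hp, haptoglobin, the haemoglobin scavenger, had 0.8 FPKM in pCEC, against 22.2, 42.6 and 50.99 FPKM in ciCEC. All 3 genes were far above pCEC in every ciCEC library. Spink12, a protease inhibitor, had 0.096 FPKM in pCEC, against 12.1, 5.76 and 56.2 FPKM in ciCEC on 2 reads in pCEC. Avl9 had 0.589 FPKM in pCEC, against 28.3, 24.5 and 19.96 FPKM in ciCEC, and its pCEC value fitted 1.24% of gene lengths, so the placement is uncertain. The other 3 lower genes had no read placed in pCEC and were named after their values were seen. Their 0 was inferred from the lack of a fitting line, so these placements are uncertain. In single D0 libraries, 5 to 12 genes at 1 FPKM or more were wrongly left at 0 even with checked lengths. The folds below cover depth only and hold only if the 0 is right. The secreted protein Pip had 0 FPKM in pCEC, against 113, 5.94 and 20.2 FPKM in ciCEC, at least 43.5-fold lower than the lowest ciCEC library against a floor of 3 counts per library. Calm4, a calmodulin-like protein, had 0 FPKM in pCEC, against 23.1, 7.09 and 14.6 FPKM in ciCEC, at least 44.9-fold lower. Foxa2, a forkhead factor, had 0 FPKM in pCEC, against 3.97, 3.49 and 3.97 FPKM in ciCEC, at least 35.2-fold lower.

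**Figure D5:**
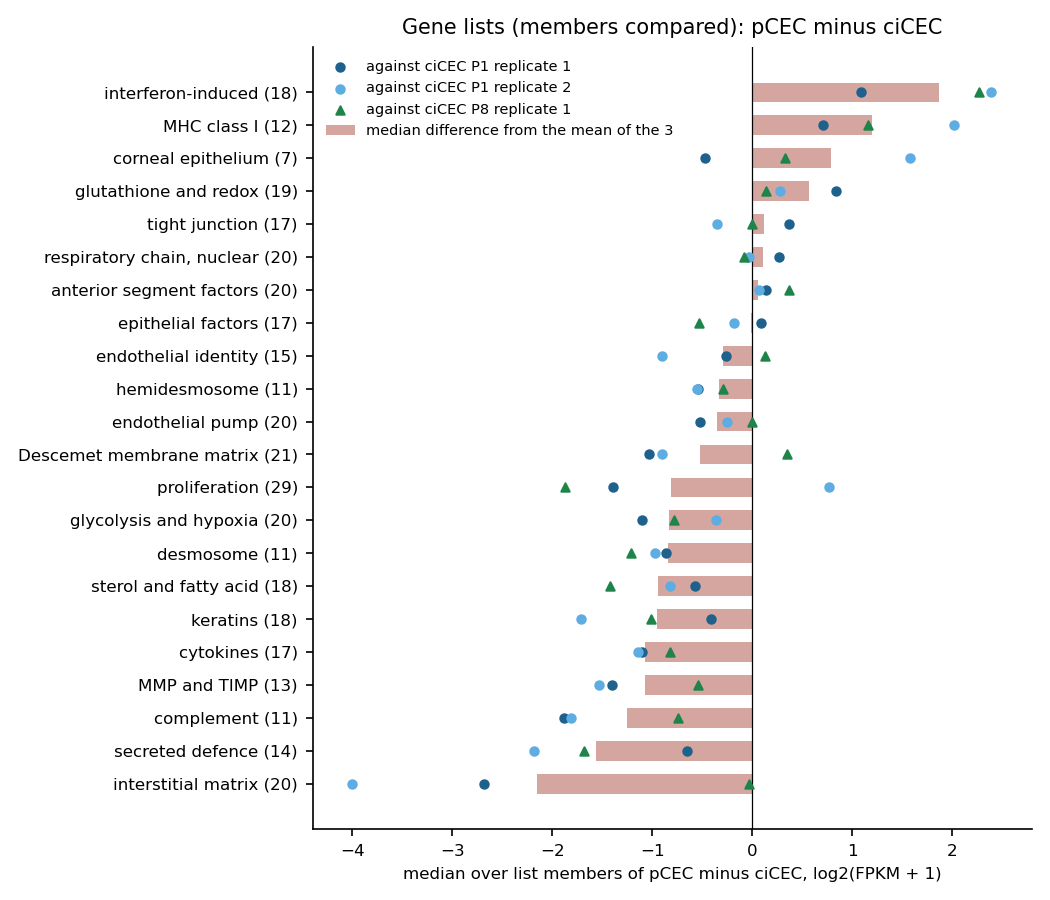
Median over the members of each gene list of pCEC minus ciCEC in log2(FPKM + 1). Bars show the difference from the mean of the 3 ciCEC libraries, symbols the difference from each single library, and numbers in brackets the members compared. Interferon-induced genes have the highest median, 1.87, and interstitial matrix genes the lowest, -2.15, where the value against P8 replicate 1 is near 0.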

How the data were processed

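Gene-level RNA-seq values of 13 libraries were deposited by the authors in 1 table of FPKM. Per the submitters' processing notes, the genome builds were mm10 and mm8 and the tool Bowtie (0.12.2), with no role given for either build, and the kit named by the labels is an Illumina TruSeq RNA kit. The counting tool and annotation are not given in the sources used here. No column was left unmapped. The D7 and D12 columns were not used here.

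The gene column followed the line order of the D0 columns. Values of pCEC, ciCEC P1 and ciCEC P8 were assigned to genes by 2 conditions: lines run in the slot order of a Python 2 dictionary with 131072 slots, and FPKM times length times library total must give whole reads (within 1e-06 plus 2e-09 per read). Lengths were rounded means over GENCODE M21 transcripts, which gave whole reads for 95.3% of 25376 D0 genes with reads, or the length solved on D0 for 976 others. Coordinates are those of that annotation (GRCm38, mm10). Genes at 0 in 1 or 2 groups while all other libraries reached 1 FPKM (53 genes) were treated as unplaced, a rule set after seeing the data, and 163 of 15447 genes at 1 FPKM were left out. The procedure was also tested on simulated data.

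From the FPKM, log2(FPKM + 1) was computed, so differences of low genes are understated. Genes compared reached 1 FPKM in at least 1 of the 4 libraries. No test was made, as pCEC is 1 library. Some genes that the naming rule covers are not reported here. Named genes are the 12 with the largest and the 12 with the lowest difference among called genes with reads in every group, and in each list described the 4 with the largest absolute difference and the defining members. Intervals are exact Poisson intervals on recovered reads; reads of PCR-amplified libraries are not independent molecules. The members and the gene lists were chosen with earlier results of these data known. Alternatives were other pseudocounts, filters and gaps, trimmed-mean (TMM) scaling, each ciCEC library left out and P8 replicate 2 added. Scripts used Python 3.11.15, numpy 2.4.6 and pandas 2.3.3.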

Additional observations from a re-analysis of the deposited data

How the results depend on the processing

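The counts of called genes depend on how the call is made. Main counts were 63 higher and 45 lower. A pseudocount of 0.1 gave 185 and 204, and 5 gave 26 and 20. A gap of 1 log2 unit gave 406 and 260, and a gap of 3 gave 19 and 18. The difference from the ciCEC mean gave 182 and 220. Only genes with reads in every group gave 41 higher. Adding ciCEC P8 replicate 2 gave 20 lower. Leaving out 1 ciCEC library gave 92 to 127 higher and 96 to 127 lower, from the narrower range to clear. TMM scaling and both other filters on low values moved neither count by over 1.5 times. All 24 genes named by rank kept the sign of their difference under the 7 alternatives run for them. These genes were chosen for lying outside the range of all 3 ciCEC libraries. Leaving out a library or changing the pseudocount could therefore not change their sign, and the kept sign says little about robustness. Adding P8 replicate 2 changed the sign of 6 list medians of 36, keratins and desmosome genes among them, with 1.08 and 0.61 log2 units. The corneal epithelium median was -0.08 without P1 replicate 2. The interferon, MHC class I, redox, matrix, complement and defence medians kept their sign under all 7. No paired analysis was possible because pCEC is 1 library and carries no replicate number. Depth limits the lower calls: Spink12 rests on 2 and S100a8 on 3 pCEC reads.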

Other observations

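Further lists showed shifts without calls. Of 18 genes of sterol and fatty acid synthesis, 14 lay below all 3 ciCEC libraries and none above, beside 20.7% and 30.1% of all genes compared, with a median of -0.94 log2 units. Mvd, an enzyme of the mevalonate pathway, had 3.93 FPKM in pCEC, against 16.1, 20.5 and 23.6 FPKM in ciCEC, and Fdps, which makes farnesyl diphosphate, had 0.452 FPKM in pCEC, against 3.01, 5.28 and 5.50 FPKM in ciCEC. Idi1, the isopentenyl isomerase, had 8.20 FPKM in pCEC, against 29.8, 22.8 and 48.02 FPKM in ciCEC, and Scd2, a fatty acid desaturase, 56.7 FPKM in pCEC, against 205, 171 and 150.1 FPKM in ciCEC. Among 20 glycolysis and hypoxia genes, 12 lay below all 3 and 3 above all, beside 20.7% and 30.1% of all genes compared. The glucose transporter Slc2a1 was among the 12, with 91.1 FPKM in pCEC, against 504, 294 and 143 FPKM in ciCEC. So was the hypoxia-induced Ndrg1, with 99.2 FPKM in pCEC, against 262, 215 and 382 FPKM in ciCEC.

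Proliferation genes were inside the ciCEC range for 25 of 29 members, beside 49.2% of all genes compared, and the ciCEC libraries themselves were far apart. Cdc20, a mitotic regulator, had 5.91 FPKM in pCEC, against 30.9, 2.82 and 60.1 FPKM in ciCEC, and the replication helicase subunit Mcm5 2.66 FPKM in pCEC, against 11.9, 2.50 and 23.3 FPKM in ciCEC. For both genes pCEC was near P1 replicate 2 and below the other two. The cell cycle inhibitor gene Cdkn2a had 160.1 FPKM in pCEC, against 146, 340.0 and 0.553 FPKM in ciCEC, where P8 replicate 1 stood apart from the other libraries. Of 11 retinoid genes none was called, 1 lay above all 3 ciCEC libraries, 5 below all and 5 inside their range. The shares over all genes compared were 30.1%, 20.7% and 49.2%. Aldh1a1, a retinaldehyde dehydrogenase, had 274 FPKM in pCEC, against 116, 9.25 and 52.5 FPKM in ciCEC, and Aldh1a3, another, had 13.98 FPKM in pCEC, against 58.1, 660.3 and 103 FPKM in ciCEC.

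Besides Trav14-2, neighbouring T cell receptor alpha variable segments were called higher in pCEC. The segment Trav13-2 had 80.9 FPKM in pCEC, against 7.38, 6.92 and 9.76 FPKM in ciCEC and Trav15-2-dv6-2 6.78 FPKM in pCEC, against 0, 0 and 0.163 FPKM in ciCEC. These 3 segments lie between 53634829 and 53649994 of chromosome 14, while Ptprc, the leukocyte surface gene, had 0 FPKM in pCEC, against 0.03, 0.069 and 0 FPKM in ciCEC. They were singled out after their values were seen, and other segments were not tallied. The P1 value of Trav14-2 fitted 1.26% of gene lengths and the pCEC value of Trav13-2 1.54%, so both placements are uncertain.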
